A study of Mus musculus with 20 samples.

Results

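Nod1, Ripk2, Nlrp3 and Ly96 are 4 mouse genes whose proteins sense bacterial products or relay that signal. They were chosen by name from the 5552 mouse genes to which the deposited counts could be attributed, and all 4 were among the 2200 genes that passed the filter on low counts. A count was attributed to a gene when the feature it was made on, read as positions on the mouse genome (mm10), lay over exons of that gene alone by 50 bp or more. The livers of 20 mice were sequenced, 5 mice in each of 4 groups. The groups were anti-CD40 with antibiotics (ABX), anti-CD40 without ABX, control with ABX, and control without ABX. Anti-CD40 is an antibody against CD40, a costimulatory receptor of antigen-presenting cells. The sources used here do not give the strain, sex or age of the mice, the clone, dose or timing of the antibody, what control mice received, or which antibiotics were used.

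NOD1 is a cytosolic receptor for peptidoglycan fragments that are typical of Gram-negative bacteria, and RIPK2 is the kinase that it and NOD2 recruit to activate NF-kB and MAP kinases. NLRP3 senses cell damage and assembles an inflammasome, the complex in which caspase-1 is activated and interleukin-1 beta and interleukin-18 are matured. LY96, also called MD-2, is the secreted partner of TLR4 that binds lipopolysaccharide. The liver receives bacterial products from the gut through the portal vein, and its Kupffer cells, endothelium and hepatocytes carry such sensors.

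The counts covered only part of each gene, and the covered coding stretches are printed to show what was measured. Coordinates are on GRCm38 (mm10) and annotation is from GENCODE M21. Ripk2 (ENSMUSG00000041135.15, minus strand of chromosome 4, 16122733 to 16163647) was covered over 314 of its 2816 exon bases, all in exon 1, which holds the 5′ UTR and the start codon. Ly96 (ENSMUSG00000025779.10, plus strand of chromosome 1, 16688051 to 16709611) was covered over 244 of 1021 exon bases, also in exon 1. Nlrp3 (ENSMUSG00000032691.14, plus strand of chromosome 11, 59541568 to 59566956) was covered over 232 of 4057 exon bases, in the coding part of exons 9 and 10. Each sequence runs 5′ to 3′ along the gene's strand in lower case, and the start codon opens those of Ripk2 and Ly96.
Ripk2 exon 1, chr4:16163224-16163396, minus strand: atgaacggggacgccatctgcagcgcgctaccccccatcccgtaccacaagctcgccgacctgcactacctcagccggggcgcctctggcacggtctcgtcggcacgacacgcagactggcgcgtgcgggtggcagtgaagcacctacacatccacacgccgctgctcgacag
Ly96 exon 1, chr1:16688508-16688619, plus strand: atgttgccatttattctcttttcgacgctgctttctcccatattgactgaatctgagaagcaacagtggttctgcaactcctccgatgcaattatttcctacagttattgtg
Nlrp3 exon 9, chr11:59565040-59565100, plus strand: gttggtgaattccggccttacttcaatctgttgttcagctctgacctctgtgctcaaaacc
Nlrp3 exon 10, chr11:59565845-59566015, plus strand: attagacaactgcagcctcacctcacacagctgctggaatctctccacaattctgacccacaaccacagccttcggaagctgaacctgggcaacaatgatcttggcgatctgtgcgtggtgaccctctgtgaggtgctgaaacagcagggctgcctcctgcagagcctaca

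Nod1 (ENSMUSG00000038058.14, minus strand of chromosome 6, 54923949 to 54972612) was the most fully covered, over 1946 of 5079 exon bases. Of these, 1789 lay in the coding part of exon 4 (54943167 to 54944955), in a feature that held 8714 of the gene's counts, or 97.0%. A second feature, over 157 bases of exons of noncoding Nod1 transcripts, held 271 counts.

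The features also reached beyond exons. That of Ripk2 spanned 7828 bases in 20 intervals, of which 2719 lay in the intron next to exon 1 and 4795 in introns of A530072M11Rik, a noncoding gene on the opposite strand. The 3 other features within A530072M11Rik had 248, 414 and 2525 bases in it. They held 0, 2 and 21 counts over all 20 libraries, against 8939 in the feature of Ripk2. Being other stretches of that gene, they do not show where in the 20 intervals the counts of the Ripk2 feature fell. The feature of Nlrp3 held 537 intron bases beside its 232 exon bases, and that of Ly96 held 130 intron bases and 977 bases outside any gene. A pair of other features that lay over Ly96 introns and no exon, of 2620 and 406 intron bases, held 54 and 17 counts in anti-CD40 ABX mice, 74 and 11 in anti-CD40 mice, 41 and 5 in control ABX mice and 30 and 9 in control mice. The counts do not use strand.

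The libraries held 5053014 to 5874749 counted fragments in anti-CD40 ABX mice, 5391794 to 6211642 in anti-CD40 mice, 6201453 to 7282519 in control ABX mice and 6196703 to 7618736 in control mice. As a check on the tissue, 5 of 10 hepatocyte markers were measured, and under anti-CD40 4 of them fell and 1 rose, with ABX and without. Asgr1 changed by -0.25 with ABX and -0.29 without, Apob rose by 0.38 and 0.23, and Cps1 changed by -1.85 and -2.3 on the log2 scale. Albumin (Alb) took 7.91% to 9.82% of counts in anti-CD40 ABX mice, 5.91% to 7.49% in anti-CD40 mice, 15.3% to 20.2% in control ABX mice and 14% to 16% in control mice. For any gene measured in bulk liver, fewer cells of a type and less RNA per cell cannot be told apart. Levels are counts per 1000000 (CPM) after TMM scaling. Each log2 fold change is given ± its SE from edgeR's quasi-likelihood fit and was called at a Benjamini-Hochberg adjusted p under 0.05 over the 2200 genes. Across all genes the median log2 fold change for anti-CD40 against control was 0.02 with ABX and 0.03 without.

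All 4 sensing genes rose with anti-CD40, with ABX and without, and Ripk2 rose more with ABX than without. For Nlrp3, few counts in the control groups left little room for a fall to be called. However, the plate column of the libraries moved with the groups. With a term for it in the fit, neither response of Ly96 was called. Nor were the difference for Ripk2 or the effects of ABX on Ripk2 and Nlrp3 in anti-CD40 mice. In the fit without that term, a call was common for anti-CD40 against control. With ABX, 51.5% of all tested genes were called, 26.6% higher and 24.9% lower, and without ABX 60.6% were called, 31.8% higher and 28.8% lower. The antibiotic dependence of the response was called for 7.55% of genes, 4.36% with a larger and 3.18% with a smaller log2 change under ABX, and among the 4 it was called for Ripk2 alone. In anti-CD40 mice, ABX against no ABX was called for 15.9% of genes, 8.68% higher, among them Ripk2, and 7.23% lower, among them Nlrp3. In control mice it was called for 6.68% of genes, 3.45% higher and 3.23% lower, and for none of the 4, in which the adjusted p values ran from 0.295 to 0.835.

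**Figure D1:**
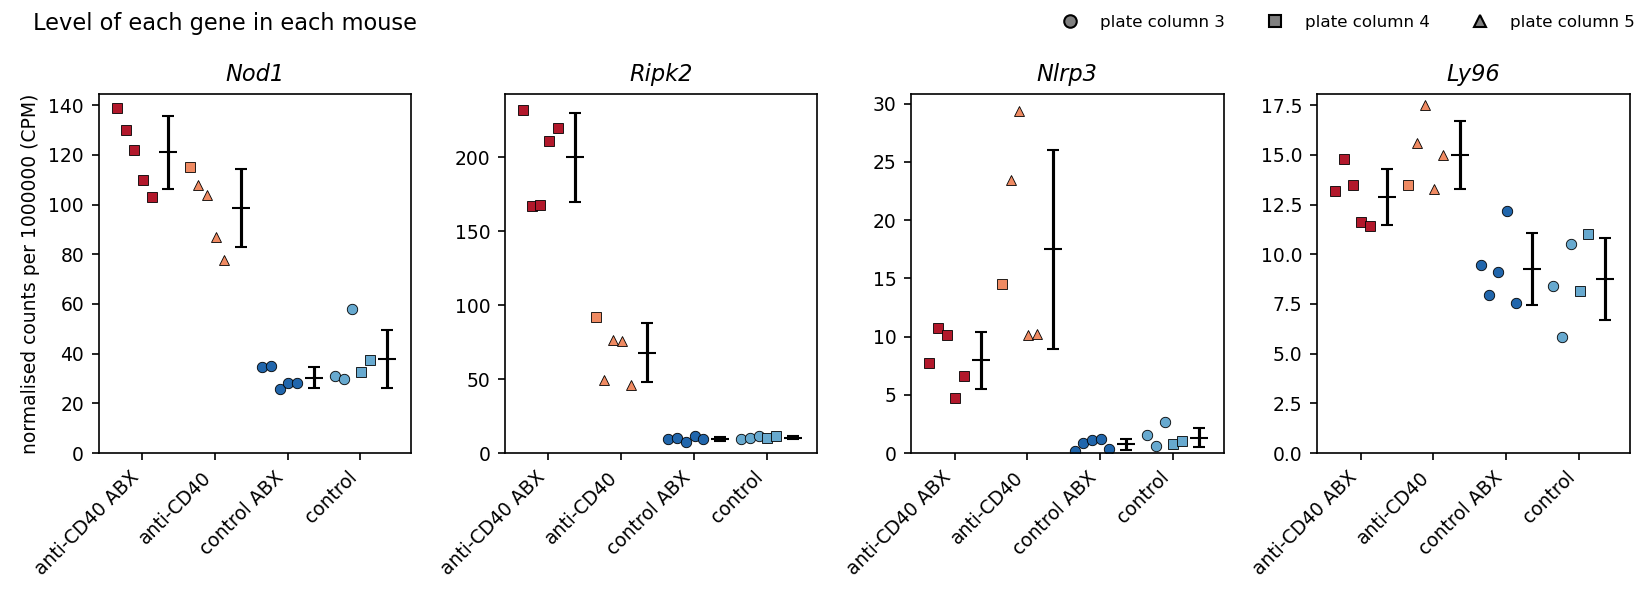
Level in normalised counts per 1000000 (CPM, linear axes from 0) of each gene in each mouse, by group, with the group mean and SD as a bar beside the points and the plate column of each library as the symbol. For Ripk2 the anti-CD40 ABX mice (167 to 232 CPM) lie above the anti-CD40 mice (46 to 92.4 CPM), and for Nlrp3 the highest mouse (29.4 CPM) is an anti-CD40 mouse without ABX.

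Nod1, the peptidoglycan receptor, measured 139, 130, 122, 110 and 103 CPM in anti-CD40 ABX mice 11 to 15 and 115, 108, 104, 87.1 and 77.7 CPM in anti-CD40 mice 16 to 20. It measured 34.5, 35.1, 25.9, 28.3 and 28.2 CPM in control ABX mice 1 to 5 and 31.2, 29.7, 58.1, 32.7 and 37.6 CPM in control mice 6 to 10. Every anti-CD40 mouse was above every control mouse, with or without ABX, and the mice with ABX overlapped those without in both arms. Control mouse 8 stood above the other control mice. With ABX, Nod1 averaged 121 ± 14.6 CPM in anti-CD40 mice and 30.4 ± 4.13 CPM in control mice (SD, n = 5 each), a log2 fold change of 1.99 ± 0.16 (edgeR adjusted p = 7.2e-10). Without ABX it averaged 98.5 ± 15.6 CPM in anti-CD40 mice and 37.9 ± 11.7 CPM in control mice, a log2 fold change of 1.38 ± 0.16 (edgeR adjusted p = 1.2e-07). The difference between these responses, 0.61 ± 0.22 on the log2 scale with a 95% interval of 0.14 to 1.07, was not called (edgeR adjusted p = 0.0954). Nor was ABX against no ABX called, at 0.29 ± 0.15 in anti-CD40 mice (edgeR adjusted p = 0.199) and -0.31 ± 0.16 in control mice (edgeR adjusted p = 0.295).

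The small feature over noncoding Nod1 exons was also higher with anti-CD40, by 2.63 ± 0.48 with ABX and 2.19 ± 0.44 without, against 1.94 ± 0.17 and 1.34 ± 0.16 for the feature over coding exon 4. All 4 values passed edgeR's test, with a highest adjusted p of 0.000154. The small feature also covered 2450 bases of Nod1 introns and 560 bases within Znrf2, a neighbouring gene. Another feature within Znrf2 introns, of 586 bases, held 3 counts over all libraries.

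Ripk2, the kinase downstream of NOD1 and NOD2, measured 232, 167, 168, 211 and 220 CPM in anti-CD40 ABX mice 11 to 15 and 92.4, 49.2, 76.7, 75.8 and 46 CPM in anti-CD40 mice 16 to 20. It measured 9.63, 10.1, 7.44, 11.8 and 9.23 CPM in control ABX mice 1 to 5 and 9.5, 10, 11.3, 10.1 and 11.8 CPM in control mice 6 to 10. The lowest anti-CD40 ABX mouse was above the highest anti-CD40 mouse, both groups were above all control mice, and the control mice with and without ABX overlapped. With ABX, Ripk2 averaged 200 ± 30.3 CPM in anti-CD40 mice and 9.65 ± 1.59 CPM in control mice (SD, n = 5 each), a 20.6-fold difference (log2 fold change 4.37 ± 0.18, edgeR adjusted p = 1.93e-14). It ranked 27 by size among the 585 genes called higher there. Without ABX it averaged 68 ± 19.8 CPM in anti-CD40 mice and 10.5 ± 0.967 CPM in control mice, a 6.44-fold difference (log2 fold change 2.69 ± 0.18, edgeR adjusted p = 1.97e-11), and ranked 88 among 700 genes called higher.

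The response of Ripk2 was 3.2-fold larger with ABX than without, a log2 difference of 1.68 ± 0.25 with a 95% interval of 1.15 to 2.21 (edgeR adjusted p = 0.000669), and ranked 3 by size among the 96 genes with a larger response under ABX. In anti-CD40 mice, ABX against no ABX gave a log2 fold change of 1.56 ± 0.15, or 2.94-fold (edgeR adjusted p = 1.09e-06), which ranked 6 among the 191 genes called higher. In control mice it gave -0.12 ± 0.2 (edgeR adjusted p = 0.796), with a 95% interval of -0.54 to 0.3. The labels place the libraries in 3 plate columns, and plate column moved with the groups. All 5 anti-CD40 ABX libraries stood in column 4, and of the anti-CD40 libraries that of mouse 16 stood in column 4 and those of mice 17 to 20 in column 5. Within column 4, Ripk2 measured 167 to 232 CPM in the anti-CD40 ABX mice, 92.4 CPM in anti-CD40 mouse 16, and 10.1 and 11.8 CPM in control mice 9 and 10. When the fit held a term for plate column, the difference in response was 1.2 ± 0.32 (edgeR adjusted p = 0.139) and ABX against no ABX in anti-CD40 mice was 1.11 ± 0.26 (edgeR adjusted p = 0.0647), so neither was called. The response to anti-CD40 itself stayed called with that term, at 4.28 ± 0.31 with ABX (edgeR adjusted p = 1.76e-09) and 3.08 ± 0.28 without (edgeR adjusted p = 4.8e-08). The anti-CD40 ABX and control ABX libraries shared no column, and the term there rests on the columns that the groups without ABX span. With it, Nod1 and Nlrp3 also stayed called with ABX, at 2.16 ± 0.29 (edgeR adjusted p = 7.55e-06) and 4.25 ± 0.93 (edgeR adjusted p = 0.00151).

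**Figure D2:**
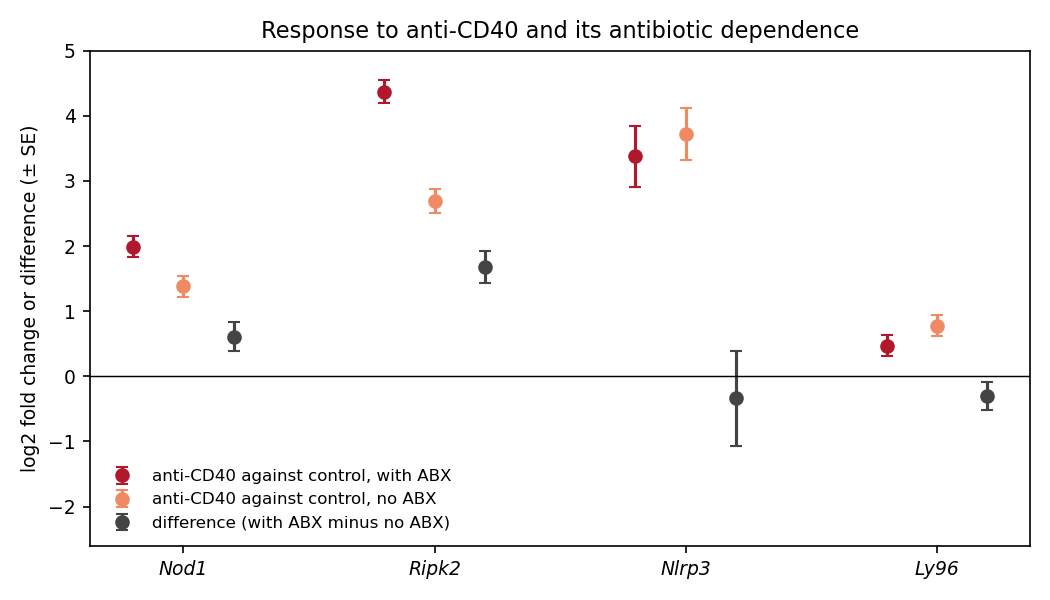
Log2 fold change of each gene for anti-CD40 against control with ABX (dark red) and without ABX (orange), and the difference between them, with ABX minus without (grey), all ± SE from 1 edgeR fit of 20 libraries. The difference is 1.68 for Ripk2 and 0.61 for Nod1, and is below 0 for Nlrp3 (-0.34) and Ly96 (-0.3). Only that of Ripk2 passed the test in this fit, which held no term for plate column.

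Nlrp3, the inflammasome sensor, measured 7.75, 10.7, 10.1, 4.77 and 6.64 CPM in anti-CD40 ABX mice 11 to 15 and 14.5, 23.4, 29.4, 10.1 and 10.2 CPM in anti-CD40 mice 16 to 20. It measured 0.16, 0.903, 1.12, 1.24 and 0.369 CPM in control ABX mice 1 to 5 and 1.54, 0.646, 2.67, 0.742 and 1.01 CPM in control mice 6 to 10. All anti-CD40 mice were above all control mice, and the anti-CD40 groups overlapped at about their border, with mice 12 and 13 level with mice 19 and 20. The levels rest on 244 counts in the anti-CD40 ABX group, 579 in the anti-CD40 group, 21 in the control ABX group and 42 in the control group. The control counts left little room for a fall to be called. With only the control groups in the fit, Nlrp3 did not pass the filter. With ABX, Nlrp3 averaged 7.98 ± 2.44 CPM in anti-CD40 mice and 0.757 ± 0.471 CPM in control mice (SD, n = 5 each), a log2 fold change of 3.38 ± 0.47 (edgeR adjusted p = 2.65e-06). Without ABX it averaged 17.5 ± 8.55 CPM in anti-CD40 mice and 1.32 ± 0.828 CPM in control mice, a log2 fold change of 3.72 ± 0.4 (edgeR adjusted p = 5.1e-08), or 13.2-fold, the largest of the 4 genes without ABX.

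The difference between these responses of Nlrp3 was -0.34 ± 0.73 (edgeR adjusted p = 0.82), and its 95% interval of -1.88 to 1.2 is wide. Within anti-CD40 mice, Nlrp3 was 2.2-fold lower with ABX (log2 fold change -1.14 ± 0.32, edgeR adjusted p = 0.019), and ranked 40 by size among 159 genes called lower. In control mice the change was -0.8 ± 0.59 (edgeR adjusted p = 0.512). The call in anti-CD40 mice was lost without anti-CD40 mouse 18, the highest (-0.86, adjusted p = 0.0695), without anti-CD40 ABX mouse 14, the lowest (-0.98, adjusted p = 0.0585), with only the anti-CD40 groups in the edgeR fit (-1.13, adjusted p = 0.0518) and with a term for plate column (-0.86, adjusted p = 0.479). Within plate column 4, anti-CD40 ABX mice measured 4.77 to 10.7 CPM and anti-CD40 mouse 16 measured 14.5 CPM.

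Promoter sequences in the RefSeq table for GRCm38.p6 were found for 2 of the 4 genes, Nlrp3 and Nod1, with 2 promoters each. Ripk2 and Ly96 were not matched. The 250 bases before each start were searched on both strands for the kappa-B consensus, the site that NF-kB binds, because several NF-kB genes rose alongside. It was found in 1 of the 4 promoters and in 1281 of 32851 promoters of the table (3.9%). The match is in capitals in the Nlrp3 promoter that holds it and starts 186 bases upstream of the start site.
Nlrp3 promoter, chr11:59541319-59541568, plus strand: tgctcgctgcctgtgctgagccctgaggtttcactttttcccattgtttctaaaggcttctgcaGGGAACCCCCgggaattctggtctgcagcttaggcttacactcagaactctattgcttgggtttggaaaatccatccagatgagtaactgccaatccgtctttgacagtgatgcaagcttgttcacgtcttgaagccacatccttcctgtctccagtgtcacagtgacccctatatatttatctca
A match of letters does not show binding.

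Ly96, the partner of TLR4, measured 13.2, 14.8, 13.5, 11.6 and 11.4 CPM in anti-CD40 ABX mice 11 to 15 and 13.5, 15.6, 17.5, 13.3 and 15 CPM in anti-CD40 mice 16 to 20. It measured 9.47, 7.95, 9.11, 12.2 and 7.57 CPM in control ABX mice 1 to 5 and 8.38, 5.82, 10.5, 8.17 and 11 CPM in control mice 6 to 10. Without ABX the anti-CD40 mice were all above the control mice, whereas with ABX control mouse 4 stood above anti-CD40 mice 14 and 15. With ABX, Ly96 averaged 12.9 ± 1.41 CPM in anti-CD40 mice and 9.26 ± 1.82 CPM in control mice (SD, n = 5 each), a log2 fold change of 0.47 ± 0.16 (edgeR adjusted p = 0.0153). Without ABX it averaged 15 ± 1.7 CPM in anti-CD40 mice and 8.76 ± 2.06 CPM in control mice, a log2 fold change of 0.78 ± 0.16 (edgeR adjusted p = 0.000154). These were the smallest changes of the 4 genes, and they ranked 466 among the 585 genes called higher with ABX and 419 among 700 without. With a term for plate column they were 0.26 with ABX and 0.5 without, and neither was called (edgeR adjusted p = 0.551 and 0.216).

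The responses of Ly96 with and without ABX differed by -0.3 ± 0.22, with a 95% interval of -0.77 to 0.17 (edgeR adjusted p = 0.431). ABX against no ABX gave -0.22 ± 0.15 in anti-CD40 mice (edgeR adjusted p = 0.359) and 0.08 ± 0.16 in control mice (edgeR adjusted p = 0.835). The mice with and without ABX overlapped in both arms.

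Levels were compared between genes only per length, and their order depended on which length was used. In anti-CD40 ABX mice, per kilobase of covered exon, Ripk2 stood at 637 CPM, Nod1 at 62.2, Ly96 at 52.9 and Nlrp3 at 34.4. Per kilobase of the whole counted feature, introns included, the same mice gave 25.5 CPM for Ripk2, 23.7 for Nod1, 10.4 for Nlrp3 and 9.55 for Ly96. In anti-CD40 mice without ABX, Ripk2 was the highest per kilobase of exon, at 217 CPM against 75.4 for Nlrp3, and the lowest per kilobase of feature, at 8.69 CPM against 22.8 for Nlrp3. The exon bases are 4.01% of the Ripk2 feature and 92.6% of the main Nod1 feature, so no order of the 4 genes by level is drawn.

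Over the 4 groups, the order of mean levels differed between the genes. Nod1 and Ripk2 were highest in anti-CD40 ABX mice, Nlrp3 and Ly96 in anti-CD40 mice without ABX. Of the neighbours in these orders, the anti-CD40 groups were separated by the test for Ripk2 and Nlrp3 and not for Nod1 and Ly96, and the control groups were separated for none of the 4. With a term for plate column, the anti-CD40 groups were not separated for Ripk2 and Nlrp3 either. Nlrp3 in anti-CD40 ABX mice was also above control mice without ABX, by 2.58 ± 0.41 on the log2 scale (edgeR adjusted p = 1.96e-05).

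Across the 20 libraries the log2 levels of the genes varied together, with Pearson's r of 0.947 between Nod1 and Ripk2, 0.898 between Nod1 and Nlrp3, 0.87 between Nlrp3 and Ly96, 0.802 between Ripk2 and Nlrp3, 0.795 between Nod1 and Ly96 and 0.7 between Ripk2 and Ly96. These describe libraries that fall into 4 groups and share their scaling. For deviations from the group means, r was 0.586 between Nlrp3 and Ly96, 0.452 between Nod1 and Nlrp3, 0.431 between Nod1 and Ly96, 0.333 between Nod1 and Ripk2, 0.0661 between Ripk2 and Ly96 and -0.0182 between Ripk2 and Nlrp3. Within groups, r was thus lowest for Ripk2 with Nlrp3 and with Ly96. No interval was computed for these values, and Nlrp3 rests on few counts in control mice.

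The genes most like each of them were taken by Pearson's r over the same 20 libraries among 1581 genes with a mean of at least 5 CPM. For Ripk2 they included Tgtp2, an interferon-inducible GTPase with the near-identical copy Tgtp1 (0.973). Tgtp2 averaged 405 ± 79.3 CPM in anti-CD40 ABX mice, 178 ± 4.94 in anti-CD40 mice, 6.19 ± 1.12 in control ABX mice and 5.5 ± 0.972 in control mice (SD, n = 5 each), the same order of the anti-CD40 groups as for Ripk2. For Nod1 they were the death receptor Fas (0.977), the membrane protein gene Ly6e (0.973) and Nampt, an enzyme of NAD synthesis (0.971). Fas averaged 73.8 ± 7.45 CPM in anti-CD40 ABX mice, 59.6 ± 7.88 in anti-CD40 mice, 10.7 ± 0.569 in control ABX mice and 14.2 ± 2.43 in control mice.

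For Nlrp3 the most alike genes were Ncf1, a subunit of the phagocyte NADPH oxidase (0.965), Nampt (0.955) and Dbnl, an actin-binding adaptor (0.953). Ncf1 averaged 53 ± 11.9 CPM in anti-CD40 ABX mice, 82 ± 26.5 in anti-CD40 mice, 7.4 ± 0.424 in control ABX mice and 9.75 ± 2.39 in control mice (SD, n = 5 each), so it too was highest in anti-CD40 mice without ABX. For Ly96 the values were lower, with the RNA-binding protein gene Hnrnpa3 (0.886), Dbnl (0.871) and Nlrp3 (0.87) as the nearest.

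Of 143 listed genes of the sensing pathways, 28 were measured, 24 of them besides the 4 genes above. For anti-CD40 with ABX, 19 of the 24 were called higher, 3 lower and 2 neither way, with a median log2 fold change of 1.49, where 26.6% of all tested genes were called higher and 24.9% lower. Without ABX, 17 were called higher, 3 lower and 4 neither way, with a median of 1.68, where 31.8% of all tested genes were called higher and 28.8% lower. Pglyrp2, Panx1, Aoah and Il18rap held 2, 14, 10 and 25 counts in control mice and 7, 26, 22 and 13 in control ABX mice. So few counts left little room for a fall to be called. The lists were chosen with earlier results of these data known, so these shares describe the lists and test nothing about the pathways. Other central genes of these pathways, among them Nod2, Tlr4, Cd14, Casp1 and Il1b, had no attributable feature and were not analysed here.

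Of the NOD1 and NOD2 pathway, 6 genes were measured, Nod1 and Ripk2 among them, and 4 rose and 2 fell under anti-CD40, both with ABX and without. Of all tested genes, 26.6% were called higher and 24.9% lower with ABX, and 31.8% and 28.8% without. Birc2, the ubiquitin ligase cIAP1, rose by 2.85 ± 0.16 with ABX and 2.69 ± 0.16 without, and Ikbkb, the IKK beta kinase, by 0.94 ± 0.09 and 0.91 ± 0.09. The 2 that fell were named after their values were seen. Xiap, a ubiquitin ligase that acts on RIPK2, fell by 0.54 with ABX and fell by 0.62 without, and Chuk, the IKK alpha kinase, fell by 0.31 and fell by 0.54. All of these passed edgeR's test, with a highest adjusted p of 0.00441. None of Birc2, Ikbkb, Xiap and Chuk had a response that was called different with ABX.

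Of the inflammasome list 5 genes were measured, and 4 were called higher in both comparisons, where 26.6% of all tested genes were called higher with ABX and 31.8% without. Besides Nlrp3 the 4 were Panx1, a membrane channel that releases ATP (2.6 ± 0.36 with ABX, 3.68 ± 0.39 without), Nlrc4, the sensor that works with NAIP proteins (1.15 ± 0.3 and 1.72 ± 0.29), and Ninj1, which ruptures the membrane of dying cells (0.86 ± 0.08 and 0.61 ± 0.08). Their highest edgeR adjusted p was 0.00257. P2rx7, the ATP-gated channel upstream of NLRP3, stood at -0.38 ± 0.35 with ABX and 0.44 ± 0.37 without and was not called.

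For lipopolysaccharide sensing, 3 genes were measured. Aoah, which inactivates lipopolysaccharide by removing acyl chains, rose by 1.56 ± 0.43 with ABX (edgeR adjusted p = 0.00368) and by 3.44 ± 0.47 without (edgeR adjusted p = 7.99e-07), and the difference of -1.88 ± 0.68 was not called (edgeR adjusted p = 0.0896). It rests on 72 counts in anti-CD40 ABX mice, 120 in anti-CD40 mice, 22 in control ABX mice and 10 in control mice. Traf6, a ubiquitin ligase shared by TLR and IL-1 receptors, rose by 0.22 ± 0.08 with ABX (edgeR adjusted p = 0.0175) and stood at 0.06 ± 0.08 without.

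The measured genes of 3 other sensor lists also rose, 1 for other Toll-like receptors, 1 for RNA and DNA sensing and 3 for lectins and peptidoglycan proteins. Among all tested genes, 26.6% were called higher with ABX and 31.8% without. Unc93b1, the chaperone of endosomal Toll-like receptors, rose by 1.24 ± 0.1 with ABX and 0.92 ± 0.1 without, and Ifih1, the RNA sensor MDA5, by 1.42 ± 0.13 and 1.07 ± 0.13. Syk, the kinase below C-type lectin receptors, rose by 2.08 ± 0.26 and 2.26 ± 0.25, and Lyz2, the lysozyme that cleaves peptidoglycan, by 2.28 ± 0.4 and 2.32 ± 0.4. Pglyrp2, an amidase that also cleaves peptidoglycan, was called higher in both comparisons on 72 counts in anti-CD40 ABX mice and 56 in anti-CD40 mice, against 7 in control ABX mice and 2 in control mice. The highest edgeR adjusted p of these 5 genes was 0.000129.

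All 4 measured NF-kB genes rose with anti-CD40, with ABX and without, at a highest edgeR adjusted p of 1.32e-08. Of all tested genes, 26.6% were called higher with ABX and 31.8% without. Nfkbie, which encodes I kappa B epsilon, rose by 5.44 ± 0.19 with ABX and 4.6 ± 0.18 without, and Nfkb2, the p100 precursor of the noncanonical pathway, by 4.02 ± 0.22 and 3.38 ± 0.21. Nfkbiz, a nuclear I kappa B protein, rose by 2.44 ± 0.18 and 2.31 ± 0.17. Nfkbia, which encodes I kappa B alpha, rose less with ABX (1.65 ± 0.16) than without (2.46 ± 0.16), a difference of -0.81 ± 0.22 (edgeR adjusted p = 0.0322). With a term for plate column this call was lost, as 0 genes were called for the difference by edgeR there (282 at an unadjusted p under 0.05). Nfkbia averaged 297 ± 25.1 CPM in anti-CD40 ABX mice, 278 ± 54.8 in anti-CD40 mice, 94.7 ± 25.3 in control ABX mice and 50.6 ± 2.82 in control mice (SD, n = 5 each). In the fit without the term, ABX raised Nfkbia in control mice by 0.9 ± 0.16 (edgeR adjusted p = 0.00229). In anti-CD40 mice its change with ABX was 0.09 ± 0.15 (edgeR adjusted p = 0.715), whereas Ripk2 was called for ABX in anti-CD40 mice only. The direction of difference of Nfkbia was opposite to that of Ripk2. These were the only genes of the 28 in which the difference was called, which is 7.14% of them against 7.55% of all genes.

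Among 5 measured receptors and ligands of the interleukin-1 family, Il18rap, a subunit of the interleukin-18 receptor, rose by 2.67 ± 0.47 with ABX and 2.92 ± 0.4 without. Il1rap, the shared accessory chain of interleukin-1 receptors, fell by 2.13 with ABX and fell by 1.28 without (edgeR adjusted p = 0.000152 and 0.011). Il18r1 rose with ABX (2.24 ± 0.7, edgeR adjusted p = 0.00974) and stood at 0.97 ± 0.61 without. The interleukin-1 receptor gene Il1r1 was lower with ABX in both arms, with a log2 fold change of -0.63 ± 0.19 in anti-CD40 mice (edgeR adjusted p = 0.0276) and -0.75 ± 0.19 in control mice (edgeR adjusted p = 0.0206). Il18rap was lower with ABX in anti-CD40 mice (-0.98 ± 0.33, edgeR adjusted p = 0.0456), on 94 counts with ABX and 200 without. With a term for plate column, 5 genes in all were called for ABX in anti-CD40 mice, against 350 without the term. The calls of Il1r1 and Il18rap were not followed in that fit.

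**Figure D3:**
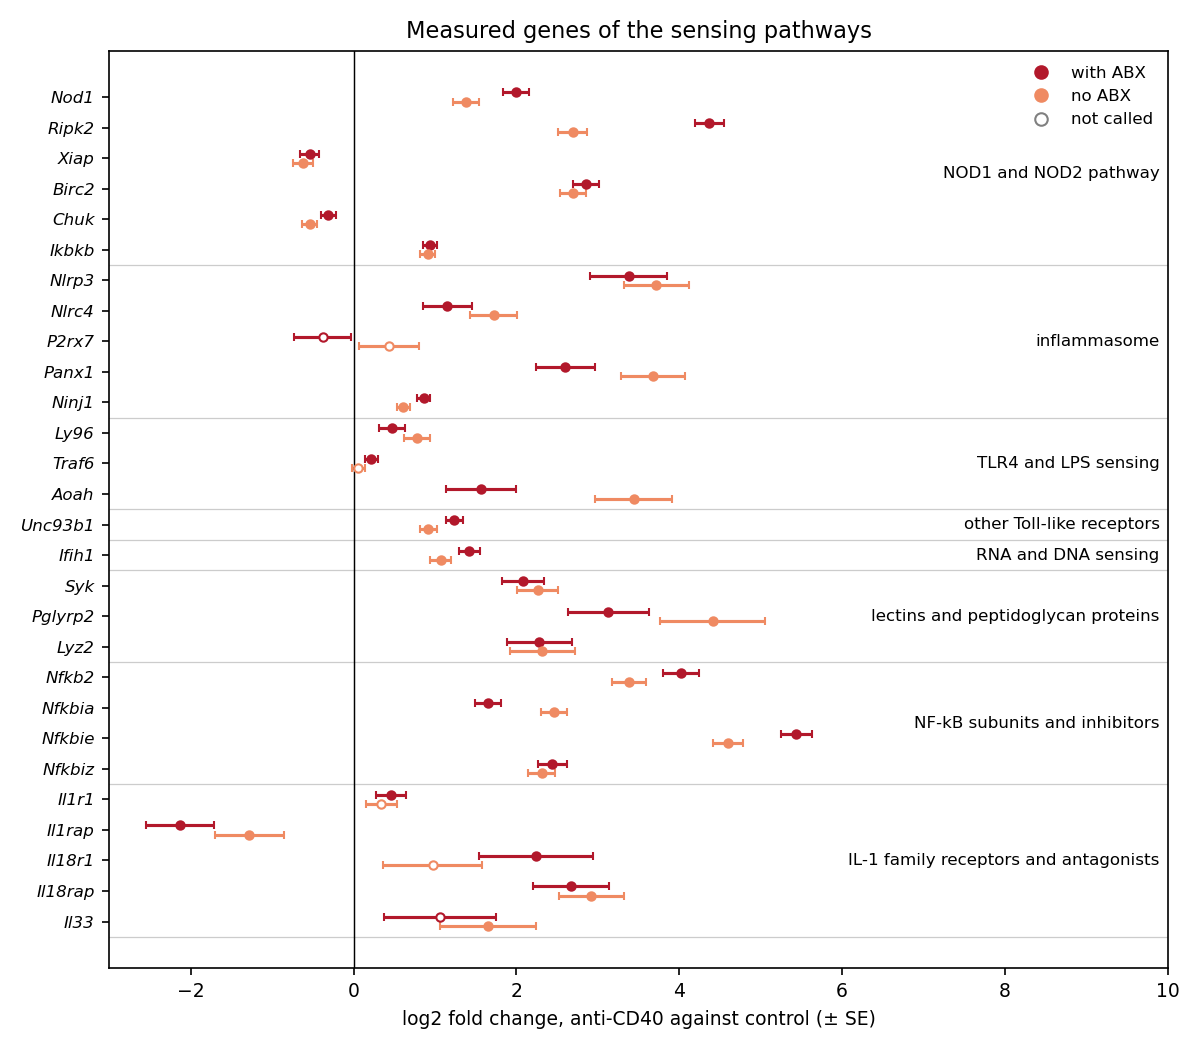
Log2 fold change (± SE) for anti-CD40 against control of the 28 measured genes of the sensing pathways, by list, with ABX (dark red) and without (orange), with open points for values that were not called. Most points lie above 0 in both comparisons, with Nfkbie farthest to the right (5.44 with ABX) and Xiap, Chuk and Il1rap below 0.

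Markers of immune cells moved with the groups. Of 16 monocyte and macrophage markers, 4 were measured, and their summed level ranged from 283 to 892 CPM in anti-CD40 ABX mice, 245 to 971 in anti-CD40 mice, 126 to 179 in control ABX mice and 118 to 260 in control mice. Lyz2 made up most of these sums. It and Ms4a7 rose with anti-CD40, while Adgre1 (-2.54 ± 0.39 with ABX, -2.5 ± 0.38 without) and Mrc1 (-4.76 ± 0.41 and -5.63 ± 0.45) fell. Mrc1 was at 0 in some anti-CD40 mice of both groups. Of 7 Kupffer cell markers Marco alone was measured, at 22.9 to 33 CPM in anti-CD40 ABX mice, 38.5 to 133 in anti-CD40 mice, 3.36 to 18.6 in control ABX mice and 9.5 to 93.1 in control mice. None of 12 neutrophil markers and none of 6 NK cell markers had an attributable feature.

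Nlrp3, Nod1 and the summed macrophage markers, which were mostly Lyz2, were lowest in the same mice of the anti-CD40 groups. The anti-CD40 ABX mice 14 and 15 had summed macrophage markers of 283 and 293 CPM and Nlrp3 at 4.77 and 6.64 CPM, and anti-CD40 mice 19 and 20 had 363 and 245 CPM of markers and Nlrp3 at 10.1 and 10.2 CPM, each pair the lowest of its group. Their summed endothelial markers, 14.6 and 14.5 CPM in mice 14 and 15 and 26.1 and 25.5 CPM in mice 19 and 20, were also the lowest of their groups. Nod1 was also lowest there, at 110 and 103 CPM in mice 14 and 15 and at 87.1 and 77.7 CPM in mice 19 and 20. Ly96 was lowest in mice 14 and 15 of its group, at 11.6 and 11.4 CPM, while mice 19 and 20, at 13.3 and 15 CPM, were not the lowest pair of theirs. Ripk2 did not follow this order. With ABX, mice 14 and 15 measured 211 and 220 CPM, against 167 and 168 CPM in mice 12 and 13. Without ABX, mouse 20 was the lowest at 46 CPM, but mouse 19 at 75.8 CPM was above mouse 17 at 49.2 CPM. Without these 4 mice, Nod1 was higher with anti-CD40 by 2.08 ± 0.16 with ABX and 1.51 ± 0.16 without. Likewise, Nlrp3 was higher with anti-CD40 by 3.62 ± 0.4 with ABX and 4.05 ± 0.33 without, and lower with ABX in anti-CD40 mice, at a log2 fold change of -1.23 ± 0.31 (edgeR adjusted p = 0.0195). The difference for Ripk2 was then 1.5 ± 0.25 (edgeR adjusted p = 0.00289). This repeat was chosen after seeing the data, and the part of cell composition in these results was not tested.

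**Figure D4:**
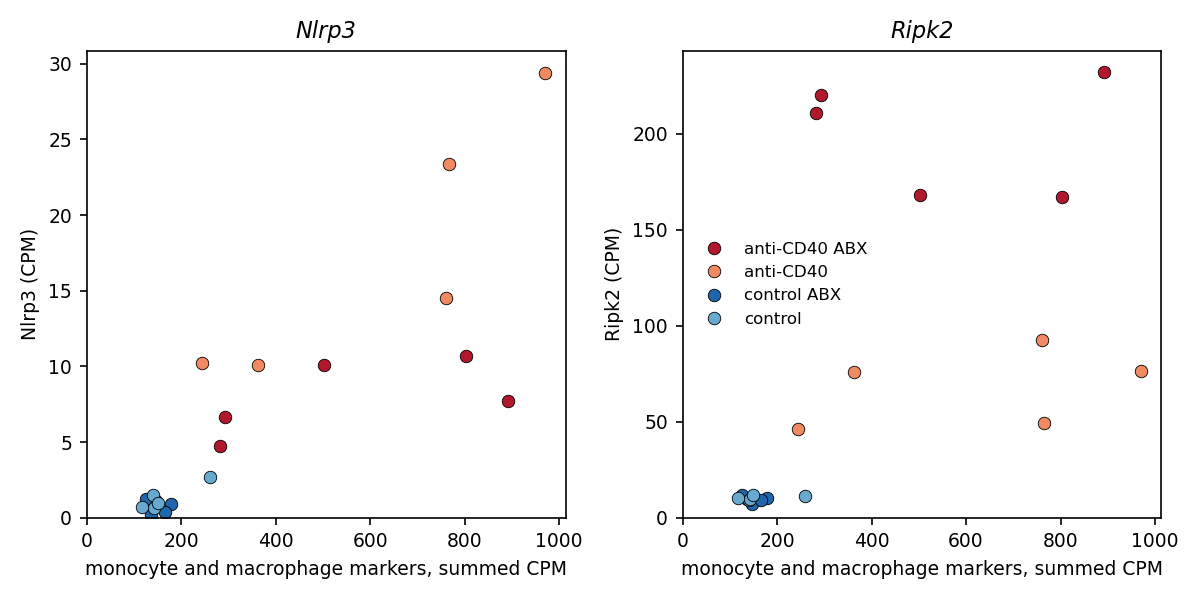
Level of Nlrp3 (left) and Ripk2 (right) in CPM against the summed level of the 4 measured monocyte and macrophage markers in CPM, with a point for each mouse, coloured by group. For Ripk2 all anti-CD40 ABX mice lie above all anti-CD40 mice. Plate column moved with these groups, and the part of cell composition was not tested. Control mice lie at or below 260 CPM of markers with Nlrp3 at most 2.67 CPM. Lyz2 makes up most of the sums.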

How the data were processed

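Liver RNA of 20 mice was measured by RNA sequencing, 5 mice per group, with groups taken from the labels. Trimmomatic 0.38, HISAT2 2.1.0 and the build mm10 are named in the submitters' processing notes. Per the file headers, the authors made whole-number counts of fragments over exons with featureCounts 1.5.0-p2, in paired mode without a strand option, on a human annotation. The deposited counts are raw. When feature coordinates were taken as mm10, 99.46% of the counts fell in features that touch a mouse exon, and 30.03% or 34.98% when shifted by 1000000 bp down or up, so the human identifiers were not used. Features were intersected with GENCODE M21 exons (bedtools 2.31.1). Those touching exons of more than 1 gene, with 52.34% of counts, were not used. The median tested gene was covered over 375 bp, or 7.75% of its exon bases, so values describe parts of genes. Overlapping and antisense transcripts cannot be separated.

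Library sizes were totals over all features (5053014 to 7618736, median 6199078). edgeR 4.0.16 in R 4.3.3 was used with TMM scaling, its expression filter, robust dispersions and 2-sided quasi-likelihood F-tests, in 1 fit of all 20 libraries with a mean per group. P-values were adjusted by Benjamini-Hochberg over 2200 genes, and the threshold was 0.05. The 95% intervals used the fit's 16 residual degrees of freedom and are approximate. The fit was tested on simulated data. The mice are separate animals, so the spread is between animals. Log2 levels used a prior count of 2. The comparisons share groups, so their values are not independent.

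The 4 genes and the gene lists were chosen with earlier results of these data known. Named besides the 4 genes were up to 4 measured genes per pathway list by smallest p, and the 3 genes most alike per gene with a mean of at least 5 CPM, of which some are not reported here; Xiap, Chuk and P2rx7 were added after their values were seen. Alternatives were DESeq2 1.42.0, library totals, other filters and overlap minimums, all features over a gene, plate column as a term, only the groups compared, and leaving out each mouse.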

Additional observations from a re-analysis of the deposited data

Results flagged for a closer look

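In 16 groups of 5 mice, each of the 4 genes in each group, the highest and the lowest mouse were compared with the others. Chance marks about 1 in 20 such groups. Nod1 in control mouse 8, at 58.1 CPM, stood apart from the other control mice at 29.7 to 37.6 CPM, with a gap of 0.722 of the group's range. That mouse also had the highest summed monocyte and macrophage markers of the control mice, 260 CPM, and the highest Nlrp3 of the control mice, 2.67 CPM.

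Among the 28 measured pathway genes, the response to anti-CD40 differed with ABX by edgeR's test for 2. Neither was called with a term for plate column. For Ripk2 the response with ABX exceeded that without by 1.68 on the log2 scale (adjusted p = 0.000669). For Nfkbia the difference was -0.81 (adjusted p = 0.0322), and there the control ABX mice averaged 94.7 ± 25.3 CPM and the control mice 50.6 ± 2.82 CPM (SD, n = 5 each).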

How the results depend on the processing

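No paired analysis was possible because the mice carry numbers that no 2 groups share. With a term for plate column there were 690 calls for anti-CD40 with ABX, 735 without, 0 for the difference (282 at an unadjusted p under 0.05; edgeR), 5 for ABX in anti-CD40 mice and 77 in control mice. Ly96 was then 0.26 with ABX and 0.5 without, the difference was 1.2 for Ripk2 and 0.22 (reversed) for Nlrp3, and ABX in anti-CD40 mice was 1.11 for Ripk2 and -0.86 for Nlrp3. Using all features over a gene (6090 genes tested), the calls were 3386, 3761, 592, 1070 and 425 in the same order of comparisons. Without mice 14, 15, 19 and 20, 79 genes were called for the difference and 170 for ABX in anti-CD40 mice, and within plate column 3 there were 44 for ABX in control mice, both repeats chosen after seeing the data. With only the groups compared, Nlrp3 for ABX in anti-CD40 mice was -1.13 (adjusted p = 0.0518). In control mice Nlrp3 did not pass the filter in that fit or within plate column 3.

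Leaving out each mouse in turn gave 88 to 194 calls for the difference, lowest without anti-CD40 ABX mouse 14 and under 111 also without anti-CD40 mouse 18 (94), control mouse 10 (104) and control ABX mice 4 (109) and 5 (110). It gave 225 to 380 calls for ABX in anti-CD40 mice, lowest without mouse 14 and without mouse 18 (230), and 89 to 157 in control mice, lowest without control mouse 10 and without control ABX mouse 4 (90). Nlrp3 for ABX in anti-CD40 mice ranged from -1.26 to -0.86, with adjusted p of 0.00805 to 0.0695. Ly96 for ABX in control mice ranged from -0.04 to 0.17, below 0 without control ABX mouse 4 (-0.04) and control mouse 7 (-0.03), and was -0.05 with library totals. Library totals moved the median of all genes to 0.37 for anti-CD40 with ABX and 0.27 without, and the share of calls that were higher to 76.8% against 51.6% with ABX, 69.7% against 52.5% without, 80.3% against 57.8% for the difference, 20.1% against 51.7% for ABX in control mice and 45.1% against 54.6% in anti-CD40 mice. The other values of the 4 genes kept their direction and their side of the threshold under every alternative run. Depth limits Nlrp3 most, with 21 counts in control ABX mice and 42 in control mice.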
